A study of Ambystoma mexicanum with 6 samples.

Results

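The sites described here are regions of axolotl limb DNA that were called accessible in intact limb cells and in no blastema library. They were found by joining all peaks of 6 lists that overlapped by at least 1 bp into sites, and by keeping those with a peak in intact 1 or intact 2 and in neither blastema 1 nor blastema 2. Joining gave 3529 sites in all, of which 520 had an intact peak. Of these 520, 289 sites met the rule (55.6% of the intact sites) and the other 231 had a blastema peak as well. Among the 289 sites, 168 had a peak in a systemically activated library and 121 had none. The sites were chosen by the presence of peaks in the intact and blastema lists, so the numbers that follow from those calls are a description, and no test was made of them.

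The axolotl (Ambystoma mexicanum) is a salamander that regrows an amputated limb. The regrowth comes from a blastema, a mass of dividing progenitor cells that forms under a wound epidermis at the stump. After an amputation, cells in uninjured parts of the animal also enter the cell cycle, which is called systemic activation. ATAC-seq uses the Tn5 transposase to cut and tag DNA that is not wrapped tightly in nucleosomes. Promoters, enhancers and other regulatory elements are typical places of such open DNA, and many of them are open in some cell types and closed in others.

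The libraries came from wild type animals, 2 for each of 3 groups. Intact libraries were made from limb tissue at homeostasis. Systemically activated libraries were made from limb tissue 14 days after an amputation. Blastema libraries were made from the blastema with its wound epidermis, and the labels give no day for them. In every group, living cells were sorted for a 4C DNA content, the content after the genome has been copied, and 10000 such cells went into each library. The labels give no age, no number of animals and no pooling, so replicates may share animals, and the spread between them may be technical. The sort was by DNA content and not by cell type. In such bulk samples, fewer cells with an open site and less opening per cell cannot be told apart.

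The data are lists of peaks called by the authors in each library. The lists of intact 1 and 2 hold 305 and 483 peaks, those of systemically activated 4 and 5 hold 1389 and 2962, and those of blastema 1 and 2 hold 248 and 258. Read depth is unknown, since the lists carry no read numbers. Each peak has an area, a value the authors gave within a library, and no scaling between libraries is stated. Areas are therefore read here through their rank in their own list, with rank 1 for the largest area, and ranks in lists of different lengths show no change. The genome build is not given in the sources used here, so no gene was assigned to a site and no tissue marker could be looked up. Positions count from 1 in the coordinates of the lists, which name a chromosome arm and, for long arms, a segment numbered from 0 within which positions are counted.

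Intact 2 supplied most of the sites. There were 217 sites with a peak in intact 2 only, 47 in intact 1 only and 25 in both. The share found in both intact lists was 8.65% (25 of 289), where 41.7% of all 520 intact sites had both. The rule used these calls, and nothing is read from that difference. Of the sites with a peak in intact 1, 25.9% were not called in blastema (72 of 278, Wilson 95% CI 21.1 to 31.4). Of those with a peak in intact 2, 52.7% were not (242 of 459, 48.2 to 57.2). The intervals cover counting error only. Without intact 2 the rule left 73 sites, and without intact 1 it left 242. The number in both intact lists was 39 without blastema 2 and 37 without blastema 1.

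The rule turns on whether a peak was called, and the smallest area in any list was 20.0. The members just inside it were peaks of intact 2 alone. They spanned 312136743 to 312136840 in segment 2 of arm 1p (98 bp, rank 483 of 483), 10295477 to 10295571 in segment 0 of 7p (95 bp, rank 481) and 39385409 to 39385489 in segment 0 of 2q (81 bp, rank 480). Their areas were 20.0, 20.1 and 20.1, and none had a systemically activated peak. Just outside the rule were sites held back by a single weak blastema peak. The weakest such peak had an area of 21.1 in blastema 2 (rank 257 of 258) at a site on segment 1 of arm 8q from 357769956 to 357770440, which ranked 216 in intact 2. The next had an area of 23.4 in blastema 1 (rank 243 of 248) on segment 0 of arm 1p from 198463508 to 198464004, and ranked 217 in intact 2. The third had an area of 24.2 in blastema 1 (rank 240) on segment 2 of arm 5q from 386340435 to 386340700, and ranked 211 in intact 1 and 450 in intact 2. In all, 45 intact sites were kept out by a peak in 1 blastema list, and 186 by peaks in both.

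A peak in a systemically activated list was not a condition of the rule, so these calls were not what chose the 289 sites. The lists entered through joining, where their peaks can link an intact to a blastema peak, and the rule gave 292 sites without systemically activated 4 and 295 without systemically activated 5. A peak was present in at least 1 of the 2 lists at 58.1% of the sites (168 of 289, Wilson 95% CI 52.4 to 63.7). The share was 75.0% over all 520 intact sites and 96.1% over the 231 intact sites that also had a blastema peak (222 of 231, 92.8 to 97.9). In systemically activated 4 alone it was 33.9% (98 of 289, 28.7 to 39.5) against 58.8% of all intact sites. In systemically activated 5 alone it was 51.9% (150 of 289, 46.2 to 57.6) against 68.7%. Both lists had a peak at 27.7% (80 of 289, 22.8 to 33.1) against 52.5%. Both libraries thus called fewer of the intact sites that lacked a blastema peak than of intact sites in general. The 231 sites in the comparison had by definition been called in a library of another group, and sites are not replicates, so no p is given.

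The share depended on the list. The sites called in systemically activated 5 and not in 4 numbered 70, and those called in 4 and not in 5 numbered 18, while the list of 5 was the longer. Without systemically activated 5 the share fell to 33.2%, with 98 sites called and 197 not called, and without systemically activated 4 it was 52.4%. The share was alike for the 3 intact patterns. It was 53.2% for sites of intact 1 only (25 of 47, Wilson 95% CI 39.2 to 66.7), 59.9% for sites of intact 2 only (130 of 217, 53.3 to 66.2) and 52.0% for sites of both (13 of 25, 33.5 to 70.0). These intervals overlap. At the 25 sites found in both intact lists, systemically activated 4 had a peak at 8 and systemically activated 5 at 12. At the 192 sites found in both intact lists and in blastema, they had a peak at 180 and 179.

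**Figure D1:**
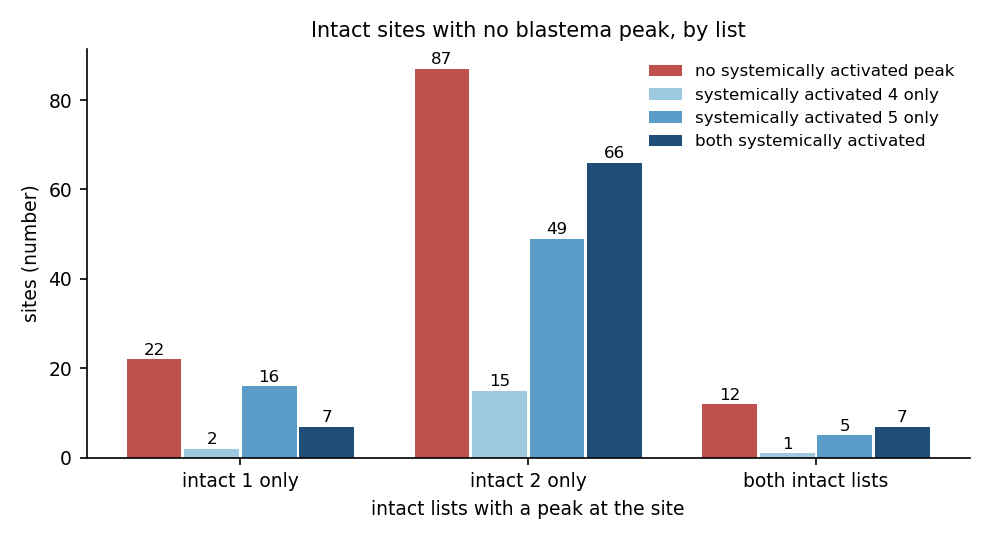
Number of intact sites with no blastema peak (vertical axis, counts from 0) by the intact lists that held them, with a bar for each combination of systemically activated lists. Sites of intact 2 only make up 217 of the 289, and sites without a systemically activated peak (red) number 22, 87 and 12 in the 3 intact patterns.

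Peaks at these sites were small in their lists. In intact 1 the 73 peaks at such sites had a median area of 45.8 and a median rank of 251 of 305, and their ranks ran from 126 to 305. In intact 2 the 245 peaks had a median area of 32.6 and a median rank of 350 of 483, from 146 to 483. No site of the set was therefore among the 125 largest peaks of intact 1 or the 145 largest of intact 2. These peaks made up 23.9% of the list of intact 1 and 50.7% of that of intact 2, and held 2.01% and 3.58% of the summed peak area. They covered 13.6 kb of the 152 kb covered by all peaks of intact 1, and 37.6 kb of the 176 kb in intact 2. The highest summit −log10 q, the authors' significance at the top of a peak, was 3.79.

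Sites found in both intact lists stood higher than the others in intact 2. There the median rank was 253 for the 25 peaks at sites of both lists and 356.5 for the 220 peaks at sites of intact 2 only. In intact 1 the medians were 245 and 251, which is nearly the same place in the list. A call in both lists also chose stronger peaks, so this order is a description.

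In the systemically activated lists, the sites stood between the shared and the other peaks. The rule did not use peak sizes in these lists, but the classes differ in how many other groups called them. Shared peaks lie at sites called in intact and blastema, and the other peaks at sites without an intact peak. Calls in more groups can also choose stronger peaks. In systemically activated 4 the 103 peaks at the sites had a median area of 50.2 (median rank 569 of 1389). The 221 peaks at intact sites with a blastema peak had a median of 412 (rank 112), and the 1065 remaining peaks one of 35.8 (rank 815). In systemically activated 5 the medians were 60.0 for 151 peaks (rank 861 of 2962), 425 for 222 peaks (rank 111.5) and 36.4 for 2589 peaks (rank 1611). The order was the same in both libraries, which were divided by the same calls, so it is a description and was not tested. The largest peak at any of the sites ranked 126 in systemically activated 4 and 128 in systemically activated 5.

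The ranks of the peaks were next set beside the lengths of the lists. The blastema lists were the shortest, and the shorter held 248 peaks. Of the 98 sites called in systemically activated 4, 12 (12.2%) lay among the 248 largest of the 1389 peaks of that list. Of the 150 called in systemically activated 5, 23 (15.3%) lay among the 248 largest of 2962. Over all peaks, 248 of 1389 is a larger share than 12.2%, and 248 of 2962 is a smaller share than 15.3%. The 2 lists thus differed in direction, which was not tested. Counting either list, 28 of the 168 sites (16.7%) lay within rank 248. In intact 1, 35 of 72 sites (48.6%) lay within rank 248 of 305, and in intact 2, 44 of 242 (18.2%) lay within rank 248 of 483. The rule used the intact calls, so nothing is read from these 2 shares. When every list was limited to its 248 largest peaks, 73 sites met the rule, of which 8 had a systemically activated peak. A site without a blastema peak is thus a site not called there, which does not show that it was closed in blastema cells. Whether list length limited the calls was not tested.

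**Figure D2:**
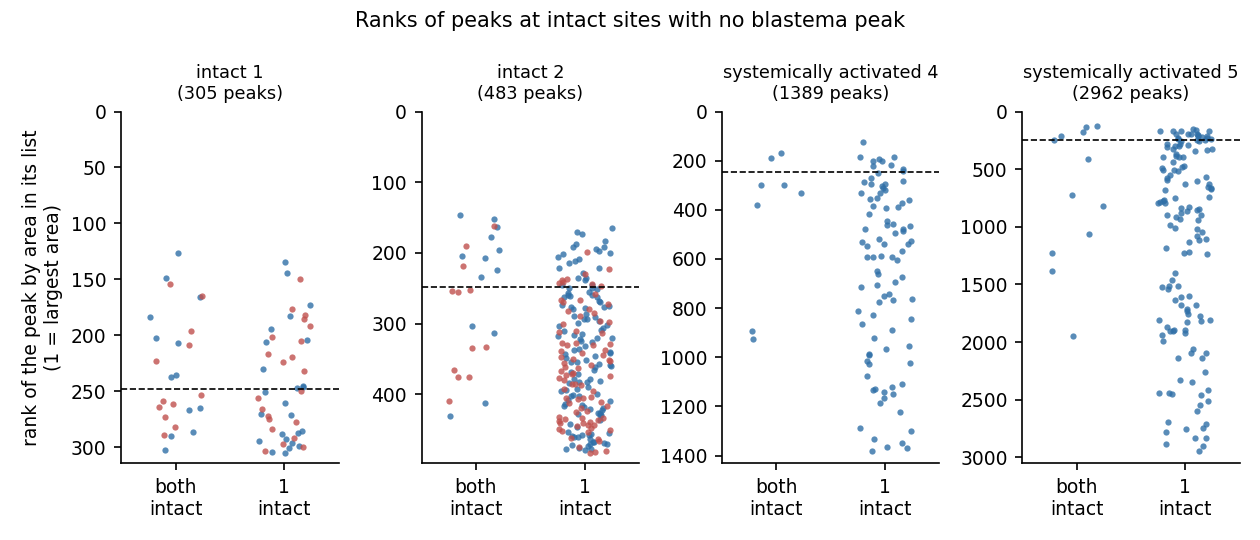
Rank by area (vertical axis, 1 at the top) of each peak at an intact site with no blastema peak, in 4 lists, for sites found in both intact lists or in 1. Blue points are sites with and red points sites without a systemically activated peak, and the dashed line is rank 248, the length of the shortest blastema list. Most points lie under the line in intact 2 and in both systemically activated lists.

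Peaks of like rank were then set side by side. Among the peaks of intact 1 at ranks 251 to 300, 50.0% of those without a blastema peak had a systemically activated peak (16 of 32, Wilson 95% CI 33.6 to 66.4). Of those with a blastema peak, 94.4% had one (17 of 18, 74.2 to 99.0). The median areas of these peaks were 32.2 and 33.7. At ranks 151 to 200 the shares were 41.7% (5 of 12, 19.3 to 68.0) and 94.7% (36 of 38, 82.7 to 98.5), with median areas of 151 and 180. At ranks 201 to 250 they were 52.6% (10 of 19, 31.7 to 72.7) and 80.6% (25 of 31, 63.7 to 90.8), and these intervals overlap. The difference within intact 1 thus ran the same way in each of these 3 bands.

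In intact 2 the share was lower without a blastema peak in 5 of 6 bands. At ranks 301 to 400 the share was 54.9% without a blastema peak (45 of 82, Wilson 95% CI 44.1 to 65.2) and 94.4% with one (17 of 18, 74.2 to 99.0), with median areas of 32.1 and 34.3. At ranks 251 to 300 it was 60.5% (23 of 38, 44.7 to 74.4) and 91.7% (11 of 12, 64.6 to 98.5). At ranks 201 to 250 it was 67.9% (19 of 28, 49.3 to 82.1) and 90.9% (20 of 22, 72.2 to 97.5), and at ranks 151 to 200 it was 82.4% (14 of 17, 59.0 to 93.8) and 97.0% (32 of 33, 84.7 to 99.5). The intervals do not overlap at ranks 301 to 400 and overlap in these other 3 bands. At ranks 401 to 483 the shares were 55.7% (44 of 79, 44.7 to 66.1) and 100% (4 of 4, 51.0 to 100), which overlap. Within ranks 1 to 150 the single peak without a blastema peak had a systemically activated peak, as did 99.3% of the others (148 of 149). The differences were not tested, and the number of peaks in each band is small. A blastema peak at a site is itself a call in another library, as noted for the 231 sites.

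**Figure D3:**
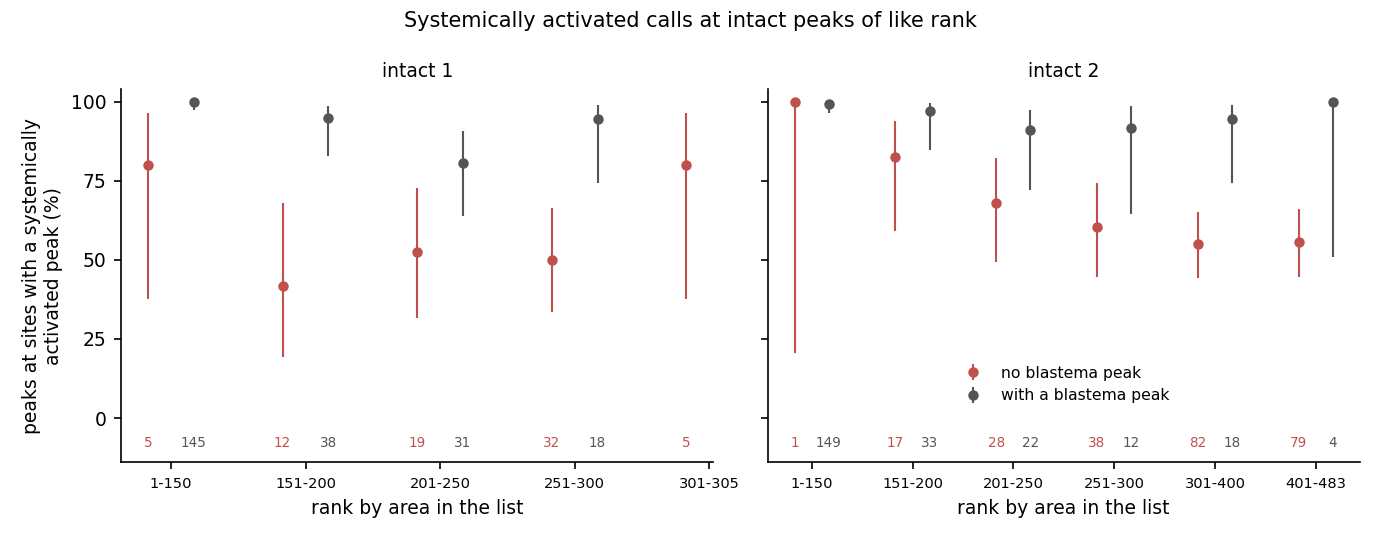
Share of intact peaks at sites with a systemically activated peak (vertical axis, percent) by rank of the peak in intact 1 and intact 2, for sites without (red) and with (grey) a blastema peak. Bars are Wilson 95% intervals and the numbers along the bottom count peaks. Red points lie under grey points in each band that has both, except at ranks 1 to 150 of intact 2, where the red point is 1 peak.

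Of the 25 sites in both intact lists, 7 also had a peak in both systemically activated lists, so that only the blastema lists had no call there. The highest in the intact lists spanned 305255570 to 305255971 in segment 2 of arm 9q (402 bp). Its areas were 288 (rank 149) and 208 (rank 152) in intact 1 and 2, and 71.1 (rank 382) and 105 (rank 416) in systemically activated 4 and 5. This site lay 407 bp from a blastema peak. A site on segment 2 of arm 7q from 355025474 to 355025736 (263 bp) had areas of 149 (rank 184) and 87.6 (rank 204) in intact 1 and 2, and of 32.3 (rank 893) and 30.5 (rank 1945) in systemically activated 4 and 5. Its nearest blastema peak was 3838676 bp away, and it stood in the lower part of both systemically activated lists.

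The next 2 of these 7 sites stood in the upper part of both systemically activated lists and in the lower part of the list of intact 1. On segment 0 of arm 10p from 162137608 to 162137818 (211 bp), the areas were 62.5 (rank 235) and 151 (rank 164) in intact 1 and 2, and 152 (rank 190) and 218 (rank 176) in systemically activated 4 and 5. On segment 2 of arm 11q from 117591951 to 117592358 (408 bp), they were 117 (rank 202), 64.7 (rank 234), 81.7 (rank 330) and 153 (rank 249) in the same order of libraries. No blastema peak was listed anywhere on that segment of 11q.

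The remaining 3 of the 7 ranked low in at least 1 intact list and among the 211 largest peaks of systemically activated 5. A site on segment 2 of arm 1q from 430909528 to 430909993 (466 bp) had areas of 114 (rank 207), 25.2 (rank 412), 31.2 (rank 926) and 300.3 (rank 136). One on the same segment from 409108915 to 409109808 (894 bp) had 29.5 (rank 286), 38.7 (rank 313), 188 (rank 169) and 341 (rank 128), the last being the largest area in systemically activated 5 at any of the 289 sites. One on arm 13q from 435932232 to 435932778 (547 bp) had 37.1 (rank 265), 23.0 (rank 431), 89.4 (rank 301) and 178 (rank 211). At the last 2 sites the peak was 81 to 119 bp wide in the intact lists and 362 to 860 bp wide in the systemically activated lists. At intact sites with a blastema peak, median widths were also larger in systemically activated 4 and 5 (435 and 486.5 bp) than in intact 1 and 2 (379.5 and 369 bp). Read depth is unknown, so these widths show no change between groups.

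A further 6 sites of both intact lists had a peak in 1 systemically activated list. The highest of the whole set by its intact peaks spanned 187175883 to 187176299 in segment 1 of arm 8p (417 bp). Its areas were 492 in intact 1 (rank 126), 242 in intact 2 (rank 146) and 68.5 in systemically activated 5 (rank 723). It was thus the strongest of the 289 sites in each intact list, and systemically activated 4 had no peak there. Its nearest blastema peak was 126638387 bp away.

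On arm 11p from 304438586 to 304439047 (462 bp) the areas were 194 (rank 166) and 41.2 (rank 303) in intact 1 and 2 and 45.3 (rank 1230) in systemically activated 5. On segment 2 of arm 1p from 443402165 to 443402439 (275 bp) they were 59.7 (rank 237), 94.3 (rank 196) and 51.1 (rank 1065). On segment 2 of arm 1q from 416839084 to 416839227 (144 bp) they were 26.8 (rank 290), 71.7 (rank 224) and 41.5 (rank 1384), and a blastema peak lay 849 bp away. These peaks fell in the middle of the list of systemically activated 5. The sixth by rank, on segment 0 of arm 1p from 28646145 to 28646464 (320 bp), had 23.2 (rank 302), 85.9 (rank 207) and 62.5 (rank 819). Systemically activated 4 supplied the peak at a single site of these 6, on segment 0 of arm 8p from 62486855 to 62487091 (237 bp), with areas of 36.7 (rank 267) in intact 1, 124 (rank 178) in intact 2 and 89.9 (rank 298) in systemically activated 4.

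The last 12 sites of both intact lists had no overlapping peak in any other library, although the systemically activated lists were the longest. A systemically activated peak could still lie close by, 238 bp away at the 2q site and 814 bp at the C0123164 site below. Of all 121 sites without a systemically activated peak, 32 (26.4%) lay within 500 bp of one and 56 (46.3%) within 10 kb. The highest lay on arm 11p from 304404972 to 304405755 (784 bp), with areas of 271 in intact 1 (rank 154) and 101 in intact 2 (rank 190). On scaffold C0123164 from 11647 to 11885 (239 bp) the areas were 127 (rank 196) and 54.4 (rank 254). On arm 13q from 29242027 to 29242301 (275 bp) they were 111 (rank 209) and 54.8 (rank 253), with summits 1 bp apart in the 2 libraries. These 3 sites stood in the middle part of both lists.

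At several sites the intact lists differed in order. On scaffold C0137388 from 57046 to 57284 (239 bp) the areas were 32.5 (rank 273) in intact 1 and 158 (rank 162) in intact 2, the largest value in intact 2 without a systemically activated peak. On segment 0 of arm 4p from 386235277 to 386235488 (212 bp) they were 196 (rank 165) and 35.3 (rank 335). On segment 2 of arm 2q from 360864168 to 360864381 (214 bp) they were 30.8 (rank 282) and 73.5 (rank 219). The scaffold site and the 2q site lay 202 bp and 264 bp from a blastema peak, the nearest among sites of both intact lists, and the 4p site lay 957 bp from one.

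The other named sites of this kind were lower. On arm 12p from 101675379 to 101675577 (199 bp) the areas were 40.5 (rank 259) and 54.4 (rank 256), and on arm 9p from 232408842 to 232408957 (116 bp) they were 44.2 (rank 253) and 30.4 (rank 365). Neither of these 2 sequences held a blastema peak. The remaining 2 named sites, both on 11p, are described with their neighbours.

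Sites of a single intact list reached similar ranks. In intact 1 only, the largest areas were 424 (rank 134) on arm 11p from 304438050 to 304438421, 335 (rank 144) on scaffold C0123164 from 17287 to 17524, and 178 (rank 173) on arm 11p from 57176411 to 57176681. Each of these had a peak in 1 systemically activated list, of 20.1 (rank 1381 in 4), 39.7 (rank 1458 in 5) and 20.5 (rank 2888 in 5). The second of these peaks stood in the middle of its list, and the others stood near the end of theirs. Without a systemically activated peak the largest were 280.3 (rank 150) on scaffold C0165900 from 4458 to 4853, 165 (rank 176) on segment 2 of arm 7q from 349955596 to 349955850, and 152 (rank 182) on segment 0 of arm 4p from 386237254 to 386237459. The last 2 lay 257 bp and 358 bp from a blastema peak.

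In intact 2 only, the largest areas with a systemically activated peak were 147 (rank 165) on segment 2 of arm 4q from 366573006 to 366573829, 135 (rank 171) on segment 0 of arm 12q from 201508921 to 201509097, and 129.8 (rank 173) on the same segment from 201508565 to 201508689. All 3 had a peak in both systemically activated lists, with areas of 99.1, 48.5 and 28.3 in systemically activated 4 and 115, 49.0 and 82.5 in systemically activated 5. Without one, the largest were 89.8 (rank 199) on segment 0 of arm 8p from 154300001 to 154300100, 72.3 (rank 223) on arm 13q from 435639034 to 435639235, and 66.5 (rank 230) on segment 1 of arm 8p from 110134012 to 110134130. Among these largest peaks of intact 2 only, all 3 with a systemically activated peak thus ranked above those without. Over all peaks at the sites, the median rank in intact 1 was 251 with and 251.5 without a systemically activated peak, which is no difference. In intact 2 it was 334 with and 365 without one. These orders were not tested.

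The distance to the nearest blastema peak was then measured. A blastema peak lay within 10 kb of 23.1% of the sites without a systemically activated peak (28 of 121, Wilson 95% CI 16.5 to 31.4) and of 10.1% of the sites with one (17 of 168, 6.41 to 15.6). For the 2971 sites with systemically activated peaks only it was 0.942% (28 of 2971, 0.653 to 1.36). Within 1 kb the shares were 10.7% (13 of 121), 4.76% (8 of 168) and 0.505% (15 of 2971). Over all 289 sites, 45 (15.6%) lay within 10 kb of a blastema peak, and 94 lay on a sequence without any. The 3 intervals at 10 kb do not overlap, and the sites are not replicates.

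The share differed between the intact lists. Of the sites in intact 1 only, 46.8% had a blastema peak within 10 kb (22 of 47, Wilson 95% CI 33.3 to 60.8), against 7.37% of those in intact 2 only (16 of 217, 4.59 to 11.6). These intervals do not overlap, but they cover counting error only and take no account of sites that lie close together. Within intact 1 only, the share was 54.5% without a systemically activated peak (12 of 22) and 40.0% with one (10 of 25). Within intact 2 only it was 12.6% (11 of 87) and 3.85% (5 of 130), and at sites of both it was 41.7% (5 of 12) and 15.4% (2 of 13). The direction was the same in all 3, and the intervals of with and without overlap in each. Without intact 2, 41.1% of the sites that met the rule had a blastema peak within 10 kb, and without intact 1, 9.50%. The share was 28.8% with the 248 largest peaks of each list, 25.2% with intact lists of equal length and 1.34% when peaks up to 5000 bp apart were joined, which takes in sites near a blastema peak.

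**Figure D4:**
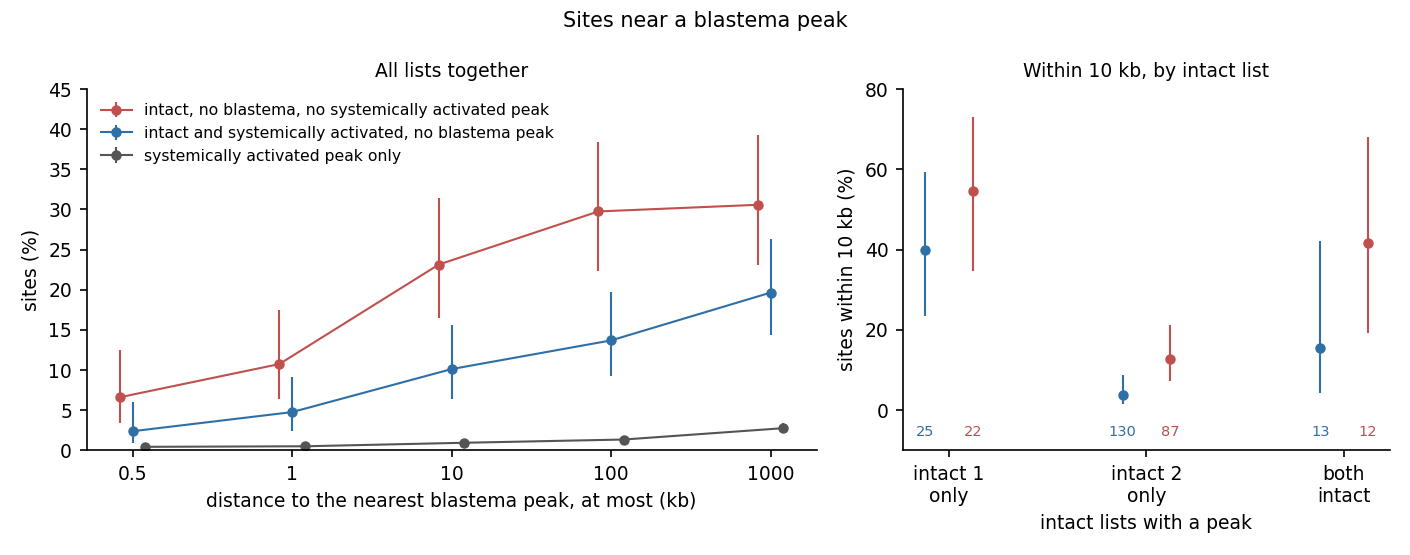
Left, share of sites (vertical axis, percent) with a blastema peak within the distance on the horizontal axis (kb, not to scale), for intact sites without a blastema peak that lack (red) or have (blue) a systemically activated peak and for sites of systemically activated peaks only (grey). Right, the share within 10 kb by the intact lists that held the site, with the number of sites along the bottom. Bars are Wilson 95% intervals. Red lies above blue throughout, and sites of intact 1 only, at 54.5% and 40.0%, lie above those of intact 2 only.

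Most of the sites stood alone. When sites up to 100 kb apart were grouped, 217 had no other site of the set in their group, 21 groups held 2 sites each, and 8 groups held 3 or more. The group with the most sites had 6, within 34512 bp on arm 11p from 304404536 to 304439047. Of these 6, 4 were in both intact lists and 2 had a systemically activated peak. Other groups were 5 sites on segment 0 of arm 1p from 28646145 to 28815397 and 4 on scaffold C0123164 from 1681 to 17524. A group of 3 on segment 1 of arm 7q from 94057340 to 94058392 had no systemically activated peak, and the 3 on segment 0 of arm 12q from 201508565 to 201509917 had one each.

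The 11p group, chosen after its values were seen, shows intact and other libraries side by side. It follows 2 sites that every library called. The first of these, from 304390795 to 304391067, had areas of 677 and 503 in intact 1 and 2, 196 and 274 in systemically activated 4 and 5, and 220.4 and 67.6 in blastema 1 and 2. The second, from 304391791 to 304392456, had 1431 and 1185, 781 and 466, and 773 and 415 in the same order. Then came the 6 sites, the first of them 12158 bp beyond the last blastema peak. No scaling between libraries is stated, so the areas at the 2 sites that every library called show no change between groups.

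From 304404536 to 304404924 (389 bp) the areas were 73.3 (rank 223) in intact 1 and 28.6 (rank 376) in intact 2, and beside it stood the 784 bp site given above. From 304419742 to 304420038 (297 bp) they were 37.1 (rank 264) and 35.6 (rank 333). From 304434315 to 304434467 (153 bp) intact 1 alone had a peak, of 91.2 (rank 217). The last 2 sites, given above, held areas of 424 and 194 in intact 1, and the second of them 41.2 in intact 2. Intact 1 thus called all 6 sites and intact 2 called 4. The systemically activated lists called 1 each, at different sites, and the blastema lists called none. Only sites that met the rule were grouped, so an intact call and no blastema call at each were set in advance. The neighbouring sites of every list ranked 165 and 86 in systemically activated 4 and 149 and 107 in systemically activated 5.

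**Figure D5:**
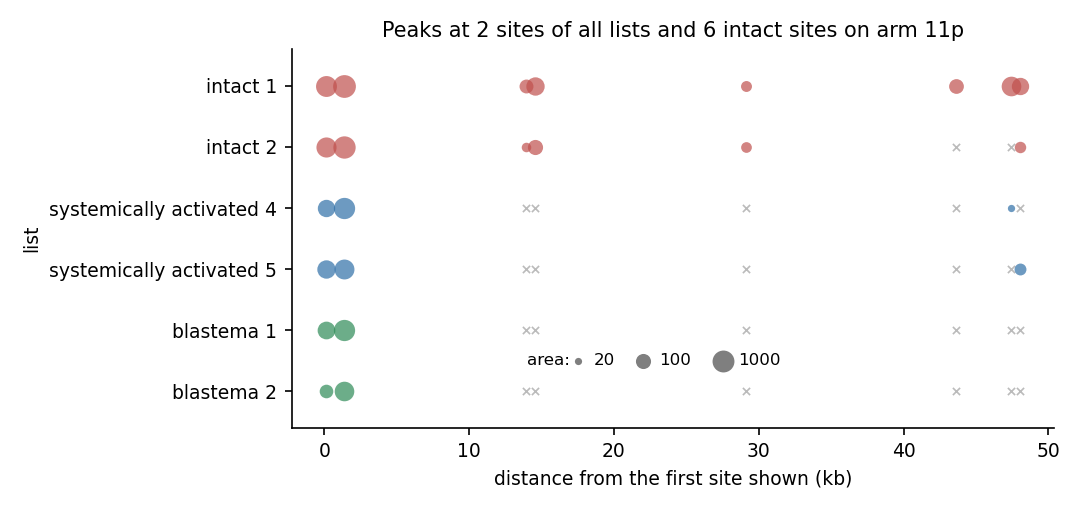
Peaks in 6 lists at 8 neighbouring sites on arm 11p (horizontal axis, kb from the first site; vertical axis, list), with the size of a circle rising with the log of the peak's area and a cross where no peak was called. The 2 sites at the left are in every list, and the 6 at the right are in intact 1, with 4 of them in intact 2. The rule itself left these 6 without a blastema peak, and circle sizes are to be compared within a list only.

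The sites were spread over 27 of the 28 chromosome arms with a site in any list, and 11 (3.81%, against 3.65% of all intact sites) lay on 7 unplaced scaffolds. Arm 1p held 25 of them, and arms 10p and 1q held 19 each. The share on 1p was 8.65% of 289, against 8.13% of all 3529 sites and 10.4% of the 231 intact sites with a blastema peak. Of the 3529 sites, 2971 had systemically activated peaks only, so shares of all sites mostly describe those lists. Arm 10p had 19 of the sites without a blastema peak and 1 of the 231 with one, and of its 19 sites 17 had a systemically activated peak. Arm 7p had 16 and 2, and arm 8p 12 and 1. Arms 10p, 7p and 8p held 6.57%, 5.54% and 4.15% of the 289 sites, against 4.34%, 2.47% and 2.83% of all 3529. Arm 7q held 18 and 21. Several arms had fewer sites without than with a blastema peak, among them 5q (5 and 26), 13q (7 and 17) and 12q (10 and 16). Arm 3q had 12 (4.15%), all with a systemically activated peak, while 9.63% of all sites and 3.90% of the 231 lay there. Sites that share an arm are not independent, and these arms were picked after their counts were seen.

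Taken over all ranks, intact peaks at the sites were narrower than those at intact sites with a blastema peak. In intact 1 the median width was 164 bp at the sites and 379.5 bp at intact sites with a blastema peak, and in intact 2 it was 105 bp and 369 bp. At like rank the order was mixed. At ranks 201 to 250 the medians in intact 1 were 225 bp at the sites and 190 bp with a blastema peak. In intact 2 they were 210.5 bp and 135.5 bp. At ranks 251 to 300 they were 85.5 bp and 113.5 bp in intact 1, and 132.5 bp and 100 bp in intact 2. The sites had the narrower median in every other band that held both kinds of peak. Peaks of at most 100 bp made up 34.2% of the peaks at the sites in intact 1 (25 of 73) and 48.6% in intact 2 (119 of 245), against 5.17% and 8.82% at sites with a blastema peak. In intact 2 they were 66.7% of the peaks at sites without a systemically activated peak (66 of 99) and 36.3% at sites with one (53 of 146). In intact 1 the order was the other way, with 29.4% (10 of 34) and 38.5% (15 of 39). At the sites with a systemically activated peak the median was 136 bp in intact 1 and 137.5 bp in intact 2. The peaks of systemically activated 4 and 5 at such sites had medians of 204 bp and 243 bp, and those at sites without an intact peak had 175 bp and 212 bp. At intact sites with a blastema peak, systemically activated 4 and 5 had medians of 435 bp and 486.5 bp. Widths in different lists show no change between groups, since read depth is unknown.

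Where 2 libraries called the same site, their summits lay close together. The summits of intact 1 and intact 2 were a median of 32 bp apart at the 25 sites of both lists and within 100 bp at 19 of them. At the 192 sites of both intact lists with a blastema peak the median was 11 bp, with 150 within 100 bp. Between intact 2 and systemically activated 5 the median was 37 bp at 127 sites, and between intact 2 and systemically activated 4 it was 43 bp at 89 sites. Intact 1 gave 41 bp at 35 sites and 65 bp at 17 sites for the same libraries. For these 4 pairs the medians at intact sites with a blastema peak were 13 to 15 bp. Peaks that overlap must lie near each other, so the width of a peak limits these distances.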

How the data were processed

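ATAC-seq was run on 6 libraries, sequenced as read pairs of 100 bp per the labels. The submitters' processing notes name Bowtie2 2.3.2 and Genrich 0.5 (also written 0.5.0) without their settings. Any Tn5 shift, the treatment of duplicate reads, the filter named in the lists and the genome build are not given in the sources used here. The deposited lists have 10 columns and no header, 1 list per library. The signal value deposited by the authors was used as the peak area. The −log10 p and q that the authors deposited belong to the summit of a peak. The deposited score equals area divided by width times 1000, capped at 1000, and was not used further.

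Peaks of all lists were joined by overlaps of at least 1 bp (Python 3.11.15, pandas 2.3.3), Wilson 95% intervals came from SciPy 1.17.1, and joining and distances were tested on simulated lists. Distances are gaps within a named sequence, and a site on a sequence without a blastema peak counts as not near. Where a list had 2 peaks at a site the larger is given. No test was run, because the rule used the intact and blastema calls and sites are not replicates.

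The sites and the rules for naming them were chosen with earlier results of these data known. Named sites were those in both intact lists, up to 10 for each number of systemically activated lists, ranked by the mean percentile of intact area. To these were added the 3 largest of each single intact list with and without a systemically activated peak, the 3 smallest members, the 3 of both intact lists nearest to a blastema peak, and the 3 weakest just outside. Alternatives were other thresholds, list lengths and joining rules, and leaving out each library.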

Additional observations from a re-analysis of the deposited data

How the results depend on the processing

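The 8 results were recomputed under 15 alternatives planned for them, fewer for the count in both intact lists, which needs both. The number of sites was within 1.5 times the reported 289 in 10 of 15. With a −log10 q of at least 5 in every list there were 19 sites (6 with and 13 without a systemically activated peak, a share of 31.6%, 10 in both intact lists), and none of them was among the 289. No other outcome was possible, since the highest summit −log10 q of an intact peak at the 289 sites was 3.79. The 19 lie at intact sites that have a blastema peak in the full lists. With at least 2 there were 154 (47 with a systemically activated peak, 30.5%, 16 in both), which held 146 of the 289. With the 248 largest peaks of each list there were 73 (8 with, 65 without, 11.0%, 7 in both). With intact lists of 305 peaks each there were 143 (88 with, 55 without, 16 in both). A common −log10 p minimum of 7.13 moved the share with a systemically activated peak to 41.0%, and joining across gaps of up to 500 bp moved it to 66.8%. Gaps of up to 5000 bp gave 71.0%, with 65 sites without one. These settings change which peaks are left or joined in each list, and other causes were not tested.

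Leaving out 1 library at a time gave 73 to 312 sites, 38 to 189 with and 35 to 197 without a systemically activated peak, a share of 33.2% to 60.8%, and 24 to 39 sites in both intact lists. The lowest number of sites came without intact 2 and the lowest share without systemically activated 5. Intact sites with a blastema peak had a systemically activated peak in 81.9% to 97.4% under all 15 alternatives, above the share at the sites without one in each. No paired analysis was possible because the labels do not say which libraries, if any, share an animal. Depth is unknown, and the lengths of the lists limit what an absent call can show.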

Other observations

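The opposite arrangement was found at 38 sites, with a blastema peak and no intact peak, beside the 231 sites with both. The blastema lists were also the shorter ones, with 248 and 258 peaks against 305 and 483 in the intact lists. Of the 38 sites, 28 had a systemically activated peak, against 222 of the 231 blastema sites that also had an intact peak (96.1%). Those 231 had by definition been called in another group as well, so nothing is read from this difference. No recount of this arrangement at equal list lengths was made.

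The summit −log10 p took few distinct values near the lower end of a list. In intact 1 the 5 lowest values, from 7.13 to 7.62, were shared by 72 peaks, of which 43 lay at intact sites with no blastema peak. That was 58.9% of the peaks at these sites and 12.5% of the other peaks of the list. In intact 2 the 5 lowest values, from 6.86 to 7.45, were shared by 200 peaks, of which 176 lay at such sites, 71.8% of their peaks and 10.1% of the others.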
